A study of Bos taurus with 18 samples.

Results

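Regulators of G protein signalling (RGS) were followed across the bovine preovulatory follicle before and after the LH surge. The members were all probe sets whose single gene symbol in the platform's annotation is RGS followed by a number. They comprised 15 probe sets for 10 genes (RGS1, RGS3, RGS5, RGS7, RGS9, RGS10, RGS13, RGS14, RGS16 and RGS19), of 24016 probe sets tested and 9155 genes named by a single symbol. Of the 21 RGS genes in the RefSeq table, these 10 were measured by symbol, and the others were not analysed here. RGS3, RGS13 and RGS19 were read by 2 probe sets each, RGS16 by 3, and the others by 1. No probe set carried the symbol RGS2 itself. One further probe set is annotated LOC513055, a gene for which RefSeq lists RGS2 as a synonym while it places a gene named RGS2 on another chromosome. Which of these transcripts it reads cannot be told apart, so it is given as LOC513055 (RGS2) and is not counted among the 15.

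A G protein coupled receptor acts by loading GTP onto a G protein alpha subunit. RGS proteins bind the loaded subunit and speed the breakdown of its GTP, which ends the signal. The family falls into subfamilies: the small R4 proteins (here RGS1, RGS2, RGS3, RGS5, RGS13 and RGS16), the RZ proteins (RGS19), the R7 proteins, which need the beta subunit GNB5 as a partner (RGS7 and RGS9), and the R12 proteins (RGS10 and RGS14). In the follicle the LH receptor is itself a G protein coupled receptor of granulosa and theca cells, and LH starts ovulation and luteinization through it.

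The RNA came from 6 cows, each of which gave its single dominant follicle, and the arrays were Affymetrix 3' expression arrays. Cows A, B and C were sampled 22 h after GnRH, given to induce the LH surge, and cows D, F and G before the surge without it. Every follicle was separated into theca, antral granulosa (aspirated with the follicular fluid) and granulosa that stayed attached to the follicle wall (membrane granulosa). The 6 groups of 3 arrays were therefore theca after LH, theca before LH, antral granulosa after LH, antral granulosa before LH, membrane granulosa after LH and membrane granulosa before LH. No group carried a genetic change, and breed and age are not given in the sources used here. A difference between times is a difference between separate cows, whereas a difference between cell populations lies within a cow.

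Levels are the deposited log2 signals, on which 1 unit is a 2-fold difference, and with 3 arrays a group the precision of each value is limited by their number. Array medians lay between 5.74 and 5.86. A level of 4.62, the top of the dimmest 33.3% of probe set means, served as the dim limit. Differences were tested with limma across all 24016 probe sets, with Benjamini-Hochberg adjustment and a threshold of 0.05. Where a group lay under the dim limit on every array, the difference is given as a bound. The separated populations were not pure. INSL3, a theca hormone, averaged 14.3 in theca after LH and 14.8 in theca before LH, yet 12.9 and 12.8 in membrane granulosa at the same times. CYP19A1, the granulosa enzyme that makes oestradiol, lay between 8.21 and 11.8 on the theca arrays before LH, against 13.6 to 13.9 in membrane granulosa before LH.

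Most of the 15 probe sets showed one of 3 patterns. RGS1, like LOC513055 (RGS2), was higher after LH in granulosa. RGS5, RGS7, RGS10, the brightest RGS16 probe set and the brighter RGS3 and RGS19 probe sets were higher in theca than in membrane granulosa at both times. RGS9, both RGS13 probe sets and 1 RGS16 probe set stayed under the dim limit on all 18 arrays. The remaining members, RGS14, the dimmer RGS3 and RGS19 probe sets and the second RGS16 probe set, are described with their own values.

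**Figure D1:**
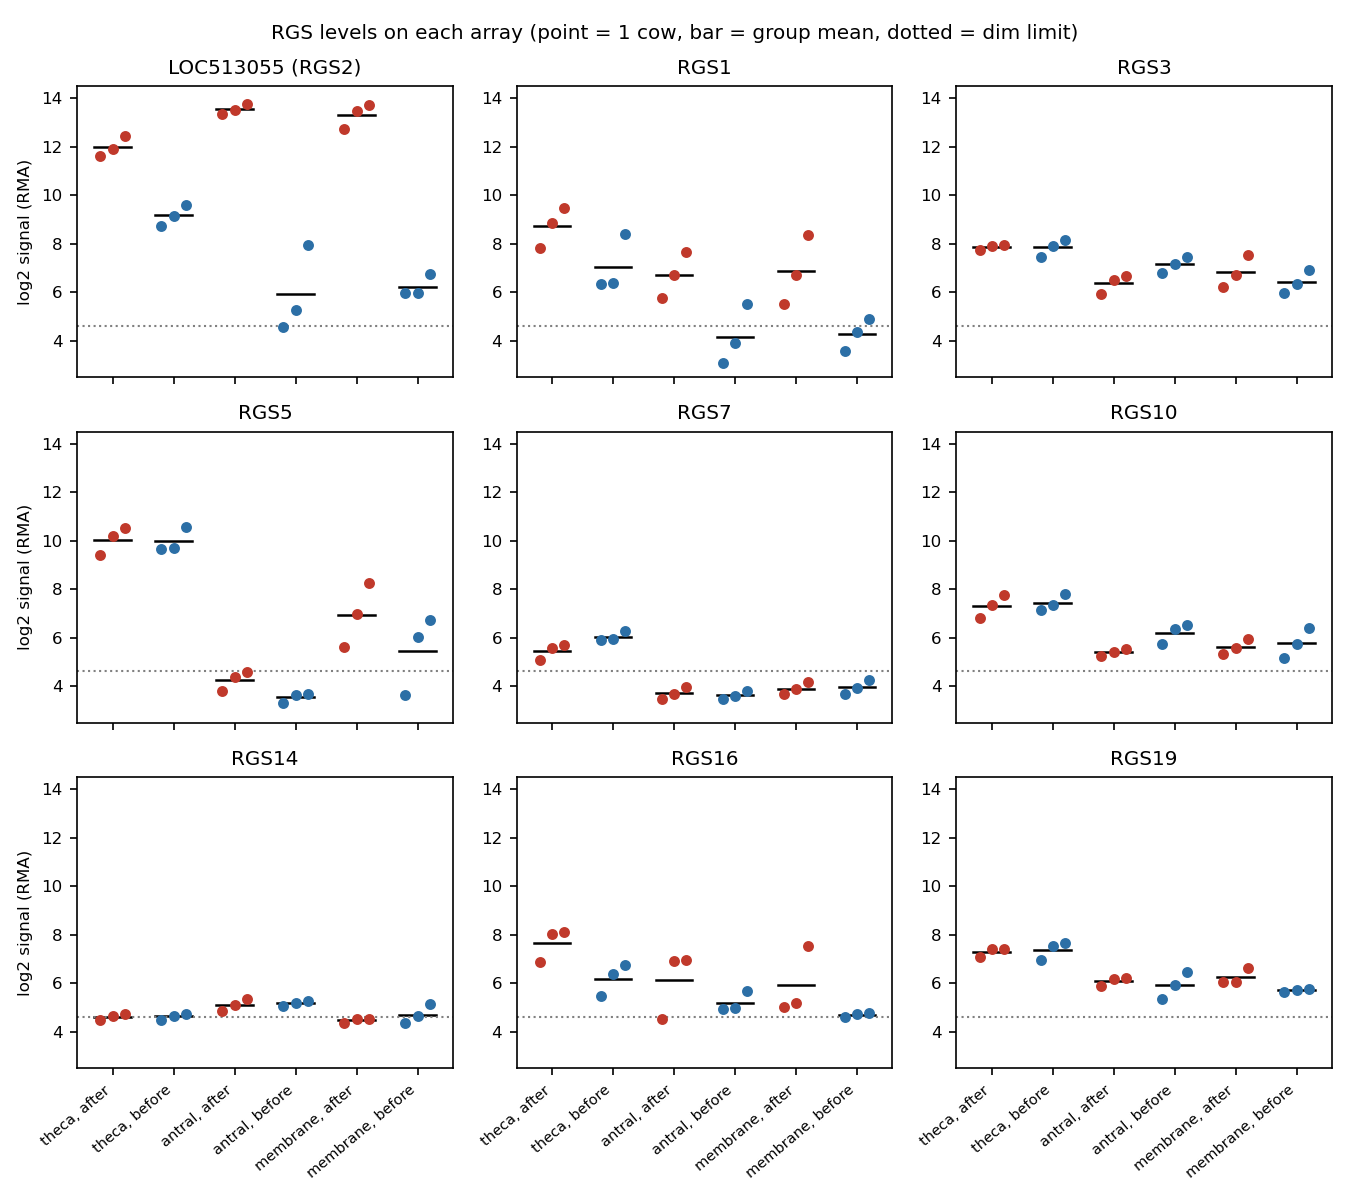
Log2 signal (vertical axis) on each of the 18 arrays for LOC513055 (RGS2) and for the brightest probe set of each RGS gene with a group mean over the dim limit (dotted line, 4.62). Each point is 1 cow, red after LH and blue before LH, and each bar is the mean of 3 cows. LOC513055 (RGS2) stands between 11.6 and 13.8 on every array after LH, while RGS5 stands between 9.39 and 10.6 on every theca array at both times.

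After LH, 1 of the 15 probe sets (RGS1) was higher in membrane granulosa, where 10.0% of all probe sets were higher, and 0 were lower, where 10.9% were. In antral granulosa 1 of 15 (again RGS1) was higher against 10.3% of all, and 0 were lower against 12.2%. In theca 1 of 15 (the second RGS16 probe set) was higher against 1.79% of all, and 0 were lower against 2.12%. At an unadjusted p under 0.05, limma gave 2 of 15 in membrane granulosa, 3 in antral granulosa and 4 in theca, where 31.6%, 32.5% and 15.4% of all probe sets were. A single call among 15 is close to these backgrounds, so the counts say nothing particular about the family. The median LH difference of the 15 was 0.08 in membrane granulosa, 0.13 in antral granulosa and 0.04 in theca, against −0.05, −0.01 and −0.0025 over all probe sets.

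The largest LH response among the RGS probe sets belonged to LOC513055 (RGS2). RGS2 is an R4 protein that acts mostly on the Gq class of alpha subunits, and its gene is known to be switched on quickly by hormones. In membrane granulosa its log2 level was 13.73, 13.46 and 12.73 in cows A, B and C after LH, against 5.96, 6.77 and 5.98 in cows D, F and G before LH. In antral granulosa it was 13.76, 13.51 and 13.33 after LH, against 7.96, 5.29 and 4.56 before LH. Theca had 12.45, 11.60 and 11.90 after LH, against 8.75, 9.61 and 9.15 before LH. In no population did the times overlap, and cow D stood above the other cows in antral granulosa before LH.

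The LH difference of LOC513055 (RGS2) on the log2 scale was 7.07 ± 0.60 in membrane granulosa (SE, limma adjusted p = 7.57e-07), a 135-fold rise. It was 7.60 ± 0.60 in antral granulosa (adjusted p = 2.60e-07), a 194-fold rise. In theca the difference was 2.81 ± 0.60 (adjusted p = 0.0147), a 7.02-fold rise. The theca call ended without cow A, with fewer arrays, although the difference was still 2.58 (adjusted p = 0.117). Both granulosa rises kept their call under every alternative tried, with differences of 6.86 to 7.36 in membrane and 6.91 (without cow G) to 8.61 (without cow D) in antral granulosa.

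The response was smaller in theca than in membrane granulosa by a direct test. The LH difference in theca minus that in membrane granulosa was −4.26 ± 0.82 for LOC513055 (RGS2) on the log2 scale (95% interval −6.03 to −2.49, adjusted p = 0.00611). That call held under every alternative, where the largest adjusted p was 0.0459. Over all probe sets, 9.13% were called in this test. None of the 15 RGS probe sets was (0 by limma, and 1 at an unadjusted p under 0.05 where 22.0% of all were), and their lowest adjusted p was 0.129. Antral and membrane granulosa did not differ detectably in their response (0.53 ± 0.82, interval −1.25 to 2.30, adjusted p = 0.881). In that test 0% of all probe sets and 0 of the 15 were called, with 9.31% of all and 2 of the 15 at an unadjusted p under 0.05.

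With these unequal rises, LOC513055 (RGS2) no longer stood higher in theca than in membrane granulosa after LH. Before LH, theca exceeded membrane granulosa by 2.93 ± 0.58 log2 units (adjusted p = 0.00168), higher in 3 of 3 cows. After LH, theca lay below membrane granulosa in 3 of 3 cows, with a difference of −1.33 ± 0.58 that did not pass the threshold (adjusted p = 0.118). That last difference passed the threshold with only the arrays compared in the fit (adjusted p = 0.0227) and without cow D (adjusted p = 0.000755). From highest to lowest, the group means were 13.54 in antral granulosa after LH, 13.31 in membrane granulosa after LH, 11.98 in theca after LH, 9.17 in theca before LH, 6.24 in membrane granulosa before LH and 5.94 in antral granulosa before LH. The 2 granulosa means did not differ detectably at either time (adjusted p = 0.840 after LH and 0.850 before LH). The granulosa markers averaged 8.09 to 8.12 on the theca arrays and 8.83 to 9.84 on the membrane arrays after LH, and 8.79 to 10.0 against 11.6 to 11.7 before LH. These markers changed with LH themselves. In membrane granulosa 52.9% of their probe sets were lower after LH and 5.88% higher, beside 10.9% and 10.0% of all probe sets. Their means after and before LH are therefore not like measures of granulosa RNA. The part of granulosa RNA in the theca levels of LOC513055 (RGS2) was not tested.

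**Figure D2:**
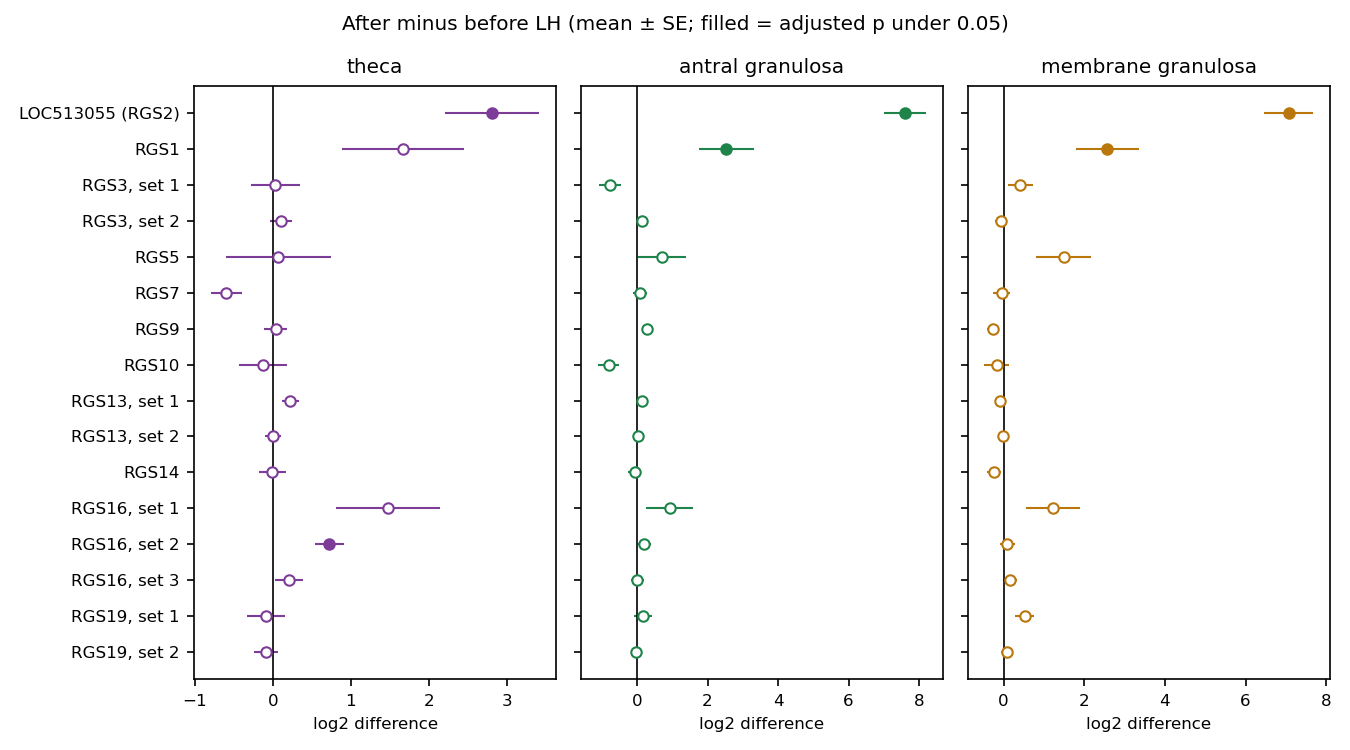
Log2 difference after minus before LH (horizontal axis, mean ± SE) for LOC513055 (RGS2) and the 15 RGS probe sets, in theca, antral granulosa and membrane granulosa, with 3 cows at each time. Filled points have an adjusted p under 0.05, and the horizontal scale differs between panels. LOC513055 (RGS2) is at 2.81, 7.60 and 7.07, and most of the 15 lie near 0.

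RGS1, an R4 protein best known from lymphocytes, where it dampens chemokine receptors, was the other gene that rose in granulosa. Membrane granulosa had 5.53, 6.71 and 8.34 in cows A, B and C after LH, against 4.38, 4.90 and 3.59 in cows D, F and G before LH. Antral granulosa had 5.75, 6.72 and 7.67 after LH, against 5.50, 3.93 and 3.09 before LH. Neither pair of groups overlapped, and cow C was the highest after LH in both populations. The rise was 2.57 ± 0.78 log2 units in membrane granulosa (adjusted p = 0.0281) and 2.54 ± 0.78 in antral granulosa (adjusted p = 0.0286).

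The RGS1 calls were fragile. In membrane granulosa the adjusted p was 0.0759 without cow B, 0.0970 without C, 0.0567 without D, 0.115 without G and 0.0530 with only the arrays compared. In antral granulosa it was 0.0875 without cow B, 0.0583 without C, 0.0752 without F and 0.145 without G. The direction never changed, with differences between 1.83 (without C) and 3.24 (without A) in membrane granulosa, and between 2.00 (without G) and 3.20 (without D) in antral granulosa.

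Within each of the 4 granulosa groups, leukocyte markers put the cows in the same order as RGS1, but not across the times. The mean log2 level of 19 marker genes was 5.23, 5.66 and 5.99 in membrane granulosa of cows A, B and C after LH, against 5.24, 5.65 and 5.12 in cows D, F and G before LH. In antral granulosa it was 5.13, 5.31 and 5.45 after LH, against 6.10, 4.90 and 4.74 before LH. In all 4 granulosa groups the cow with the highest RGS1 level also had the highest leukocyte mean. Of 25 leukocyte probe sets, 2 were higher after LH in membrane granulosa and 0 in antral granulosa, with 0 lower in either. The higher ones were 8% and 0% of the list, beside 10.0% and 10.3% of all probe sets. These counts thus show no excess of higher leukocyte probe sets. The 2 in membrane granulosa were CD14, a monocyte receptor, and CXCR4, a chemokine receptor. CD14 averaged 7.03 after LH in membrane granulosa, against 4.33 before LH, under the dim limit on all 3 arrays (adjusted p = 0.00116). CXCR4 averaged 6.13 after LH, against 4.60 before LH (adjusted p = 0.0280). PTPRC, which marks all leukocytes, averaged 6.75 after LH and 7.89 before LH and was not called. Of 16 fibroblast probe sets, 3 were higher after LH in membrane and 8 in antral granulosa, with 0 lower. These were 18.8% and 50%, beside 10.0% and 10.3% of all probe sets. Their 10 genes averaged 8.82 to 10.4 in membrane and 6.92 to 8.45 in antral granulosa after LH. Before LH they averaged 7.44 to 8.64 and 5.64 to 5.94. Cow C was again highest after LH, whereas cow F, highest for RGS1 in membrane granulosa before LH, was lowest there. The part of leukocytes and fibroblasts in the RGS1 differences was not tested.

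RGS1 was also the R4 member whose theca level varied most between cows. Theca had 8.86, 9.48 and 7.82 after LH, against 6.40, 8.40 and 6.35 before LH, and the times overlapped. The difference of 1.67 ± 0.78 did not pass the threshold (adjusted p = 0.324, interval 0.0043 to 3.34). Before LH, theca exceeded membrane granulosa by 2.76 ± 0.67 log2 units (adjusted p = 0.00662), higher in 3 of 3 cows. After LH the difference was 1.86 ± 0.67 (adjusted p = 0.0611), higher in 2 of 3 cows. It passed the threshold without cow C (3.06, adjusted p = 0.00353), without cow D (adjusted p = 0.0400) and with the dimmest 33.3% of probe sets left out (adjusted p = 0.0486). The LH difference in theca minus that in membrane granulosa was −0.90 ± 0.95 (adjusted p = 0.655), and 0.30 without cow C.

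From highest to lowest, RGS1 averaged 8.72 in theca after LH, 7.05 in theca before LH, 6.86 in membrane granulosa after LH, 6.71 in antral granulosa after LH, 4.29 in membrane granulosa before LH and 4.18 in antral granulosa before LH. The difference between the first 2 means did not pass the threshold (adjusted p = 0.324), and their arrays overlapped. The second to the fourth of these means, and the last 2, lay within the spread of their arrays. RGS13, which lies beside RGS1 in the RefSeq table with 0 protein-coding genes between them and is known from B cells and mast cells, showed no such pattern. Its 2 probe sets stayed between 2.65 and 3.53 on all 18 arrays, and neither passed the threshold in any comparison.

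RGS16, an R4 protein that is induced by inflammatory signals in other tissues, was read by 3 probe sets that did not behave alike. The brightest had 8.12, 6.87 and 8.05 in theca after LH, against 6.39, 5.48 and 6.74 in theca before LH. Antral granulosa had 6.97, 4.53 and 6.94 after LH, against 5.71, 4.96 and 4.97 before LH. Membrane granulosa had 5.22, 5.03 and 7.54 after LH, against 4.72, 4.76 and 4.63 before LH. Cow B was the lowest after LH in every population, and only in antral granulosa did this make the times overlap.

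The LH difference of the brightest RGS16 probe set was positive in all 3 populations and passed the threshold in none. It was 1.48 ± 0.67 in theca (adjusted p = 0.301), 0.93 ± 0.67 in antral granulosa (adjusted p = 0.379) and 1.22 ± 0.67 in membrane granulosa (adjusted p = 0.232). Without cow B, antral granulosa gave 1.74 (adjusted p = 0.0370) and membrane granulosa 1.67 (adjusted p = 0.0460). Without cow C, they gave 0.54 (adjusted p = 0.580) and 0.42 (adjusted p = 0.691), and without cow A antral granulosa gave 0.52 (adjusted p = 0.742). The second probe set was dimmer and passed the threshold in theca, with 5.63, 5.07 and 5.55 after LH against 4.70, 4.78 and 4.59 before LH. Its rise of 0.72 ± 0.18 (adjusted p = 0.0372), which is under 2-fold, was lost with only the arrays compared (adjusted p = 0.108). It was lost too without cow A, C, D, F or G, with adjusted p between 0.0941 and 0.180. The third probe set lay between 3.25 and 4.11 throughout, under the dim limit.

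The theca and membrane granulosa of the same follicles were compared within cows. After LH, 6 of the 15 probe sets were higher in theca (RGS5, RGS7, RGS10, RGS16, RGS3 and RGS19), where 11.4% of all probe sets were higher, and 0 were lower, where 14.4% were. Before LH, 7 of 15 were higher (the same genes and RGS1), where 15.4% of all were, and 0 were lower, where 18.9% were. The median difference of the 15 was 0.25 after LH and 0.28 before LH, against −0.02 and −0.07 over all probe sets. Without cow A or without cow B, 2 of the 15 remained called after LH, and without the cow as a block the counts were 5 after LH and 6 before LH. Leaving out a cow also leaves fewer arrays, and the calls over all probe sets under these alternatives are not given here. These lower counts therefore say nothing particular about the family.

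Markers of other cells moved the same way between these populations. Of the smooth muscle and pericyte probe sets, 12 of 15 were higher in theca after LH and 10 of 15 before LH, when 4 were lower (3 for CSPG4 and 1 for MCAM). Of the endothelial probe sets, 16 of 26 were higher after LH and 18 of 26 before LH. Leukocyte markers gave 9 and 13 of 25 higher, and fibroblast markers 10 and 11 of 16 higher with 2 and 3 lower. Red cell markers gave 0 and 1 of 11 higher, and granulosa markers 9 and 12 of 17 lower. The theca list itself gave 1 of 13 higher after LH, and 4 higher and 2 lower before LH. This list is mixed. Before LH, LHCGR averaged 8.57 in theca against 9.63 in membrane granulosa, and HSD3B1 11.8 against 13.2. At that time INSL3 averaged 14.8 in theca against 12.8, and CYP17A1 11.8 against 8.05. The part of all these cells in the theca differences of RGS genes was not tested.

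**Figure D3:**
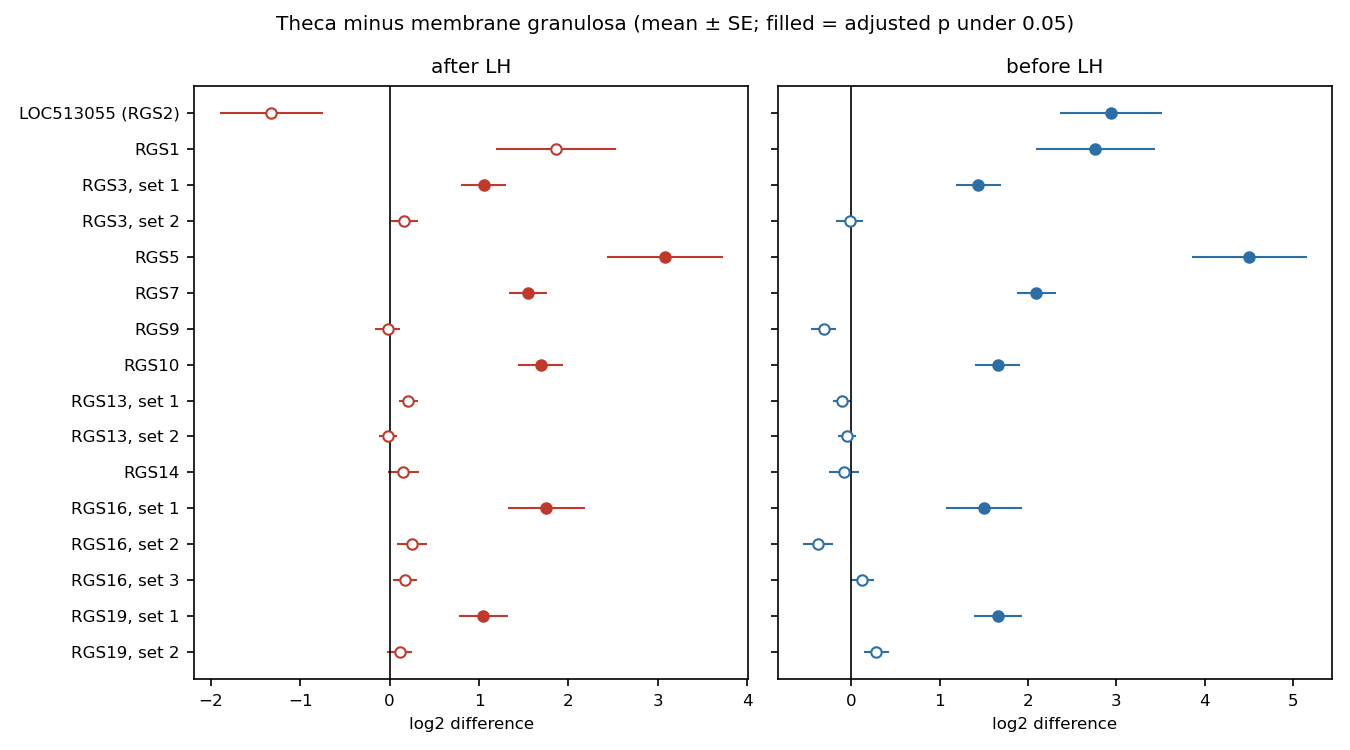
Log2 difference of theca minus membrane granulosa (horizontal axis, mean ± SE) for LOC513055 (RGS2) and the 15 RGS probe sets, after LH (cows A, B and C) and before LH (cows D, F and G), with the cow as a block. Filled points have an adjusted p under 0.05, and the horizontal scales differ between panels. RGS5 shows the greatest difference at both times, 3.08 after LH and 4.51 before LH, and LOC513055 (RGS2) is at −1.33 and 2.93.

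Of the 15, RGS5 differed most between the populations. It is an R4 protein known as a marker of pericytes and vascular smooth muscle. Theca had 10.20, 10.54 and 9.39 in cows A, B and C after LH, against 9.70, 9.65 and 10.57 in cows D, F and G before LH. Membrane granulosa had 5.63, 6.97 and 8.28 after LH, against 6.72, 3.66 and 6.02 before LH. Antral granulosa had 4.38, 3.79 and 4.60 after LH, against 3.63, 3.69 and 3.32 before LH, so that every antral array lay under the dim limit. The theca arrays stood above all others at both times, and the times overlapped in theca and in membrane granulosa.

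Within follicles, RGS5 in theca exceeded that in membrane granulosa by 3.08 ± 0.65 log2 units after LH (adjusted p = 0.00426), an 8.48-fold difference. Before LH the difference was 4.51 ± 0.65 (adjusted p = 0.000192), or 22.7-fold. The theca level was higher in 3 of 3 cows at each time. The call after LH ended without cow A (2.35, adjusted p = 0.0735) and without cow B (2.84, adjusted p = 0.0564), and the difference was 4.07 without cow C. The call before LH held under every alternative, with 3.76 without cow F and 5.27 without cow D. Because each population is a mixture of cells, fewer cells of a type and less RNA per cell cannot be told apart in any of these levels.

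RGS5 showed no detectable LH difference in theca, at 0.07 ± 0.68 (interval −1.37 to 1.51, adjusted p = 0.982). The interval leaves room for a change of either sign. In membrane granulosa the LH difference was 1.49 ± 0.68 (adjusted p = 0.143), between 0.59 without cow F and 2.15 without cow A, and in antral granulosa, where both groups were dim, no fold is given. The LH difference in theca minus that in membrane granulosa was −1.42 ± 0.92 (adjusted p = 0.419).

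RGS5 was also the single member called between the granulosa populations. After LH, antral granulosa was at least 5.05-fold lower than membrane granulosa, lower in 3 of 3 cows, with a limma adjusted p of 0.0461. The bound was 3.20-fold without cow C and 7.99-fold without cow A. That made 1 of 15 lower against 1.57% of all probe sets, and 0 of 15 higher against 1.43%. The call ended without the cow as a block (adjusted p = 0.0621), with a trended and robust prior (adjusted p = 0.0668), and whenever cow A, B, C, D or G was left out, with adjusted p between 0.0548 and 0.223. Before LH, 0 of 15 were called in either direction, where 0.687% of all were higher and 1.09% lower, and limma gave 6 of 15 at an unadjusted p under 0.05, where 17.0% of all were. RGS5 was then lower in antral granulosa in 2 of 3 cows (adjusted p = 0.150).

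From highest to lowest, RGS5 averaged 10.04 in theca after LH, 9.97 in theca before LH, 6.96 in membrane granulosa after LH, 5.47 in membrane granulosa before LH, 4.26 in antral granulosa after LH and 3.55 in antral granulosa before LH. The theca means lay within the spread of their arrays, as did the membrane means, and the antral means are both under the dim limit. On the membrane arrays RGS5 was highest in cow C, where the 12 smooth muscle and pericyte genes averaged 7.01 and the 16 endothelial genes 5.67. It was lowest in cow F, where those lists averaged 6.31 and 4.36. Endothelial genes averaged 4.87 and 5.04 in cows A and B, and 4.95 in both cow D and cow G. The smooth muscle and pericyte genes averaged 5.96 and 6.03 in cows A and B, and 6.86 and 7.01 in cows D and G. Over both times together, the mean of this list did not order the membrane arrays as RGS5 did. After LH alone, both ran from cow A through B to C, lowest to highest. Before LH alone, cow F was lowest in both, while cows D and G changed places. The genes of this list moved apart with LH in membrane granulosa. Of its 15 probe sets, 0 were higher after LH and 4 lower (26.7%, beside 10.9% of all probe sets). CSPG4 averaged 4.97 after LH and 7.79 before LH, and MCAM 6.94 and 9.88. TAGLN averaged 7.41 and 6.55, and ACTA2 8.73 and 8.69.

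Across groups, the smooth muscle and pericyte list ranged over 8.02 to 8.52 in theca after LH and 8.40 to 8.92 in theca before LH. It covered 5.46 to 6.03 in antral granulosa after LH and 5.74 to 5.85 before LH, and 5.96 to 7.01 after LH and 6.31 to 7.01 before LH in membrane granulosa. Among its defining genes, PDGFRB was under the dim limit on 17 of the 18 arrays, theca included. KCNJ8, a pericyte potassium channel, averaged 7.24 in theca after LH and 8.31 in theca before LH, against 5.09 and 4.88 in membrane granulosa. Other genes of the list went the other way before LH, when CSPG4 averaged 5.50 in theca against 7.79 in membrane granulosa and MCAM 8.89 against 9.88. Among endothelial genes VWF was dim on all granulosa arrays and on the theca arrays before LH, and KDR on all 18 arrays. PECAM1 averaged 9.42 and 9.44 in theca against 5.81 and 5.80 in membrane granulosa, after and before LH. FLT1 averaged 7.14 and 7.36 in theca against 7.26 and 3.98 in membrane granulosa. The part of vessel cells in the RGS5 levels was not tested.

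**Figure D4:**
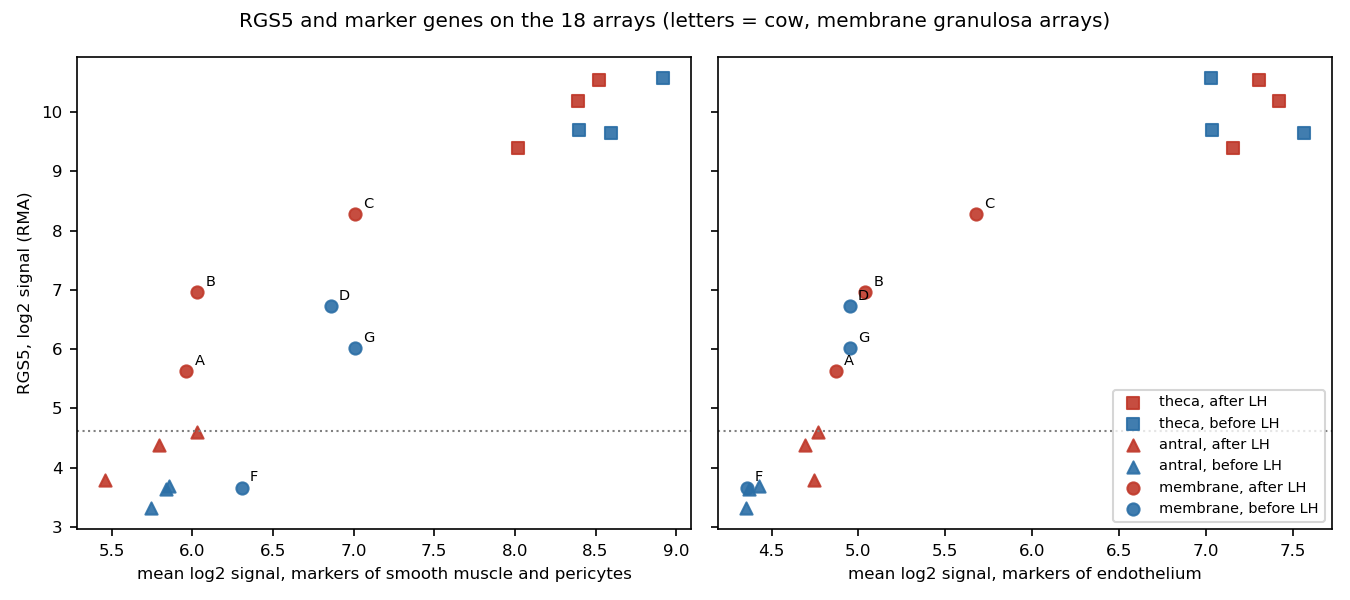
RGS5 log2 signal (vertical axis) against the mean log2 signal of 12 smooth muscle and pericyte markers (left) and 16 endothelial markers (right) on the 18 arrays, red after LH and blue before LH. Squares are theca, triangles antral granulosa and circles membrane granulosa with the cow's letter, and the dotted line is the dim limit. The 6 theca arrays lie at the upper right of both panels, and membrane granulosa of cow C is the circle nearest to them in the right panel.

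RGS3, an R4 protein that exists in several isoforms and is broadly expressed, was bright in every population. Its brighter probe set had 7.75, 7.92 and 7.97 in theca after LH, against 6.24, 6.70 and 7.54 in membrane granulosa of the same cows. Before LH it had 7.47, 7.91 and 8.16 in theca, against 5.97, 6.35 and 6.92 in membrane granulosa. The groups did not overlap at either time. Theca was higher by 1.05 ± 0.25 log2 units after LH (adjusted p = 0.00842), a call that ended without cow A (adjusted p = 0.128) and without cow B (adjusted p = 0.0829). Before LH it was higher by 1.44 ± 0.25 (adjusted p = 0.000727). In antral granulosa this probe set ranged over 5.94 to 6.66 after LH and 6.79 to 7.47 before LH, without overlap. That LH difference of −0.77 ± 0.31 did not pass the threshold (adjusted p = 0.0958). The dimmer RGS3 probe set gave 0.16 ± 0.15 for theca minus membrane granulosa after LH and −0.02 ± 0.15 before LH, neither called, so the probe sets of this gene disagreed.

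RGS19, the RZ protein first described as a partner of the inhibitory alpha subunit Gαi3, resembled RGS3. Its brighter probe set had 7.41, 7.41 and 7.07 in theca after LH, against 6.05, 6.07 and 6.62 in membrane granulosa of the same cows. Before LH it had 6.96, 7.53 and 7.68 in theca, against 5.74, 5.78 and 5.67 in membrane granulosa. Theca was higher in every cow, by 1.05 ± 0.27 log2 units after LH (adjusted p = 0.0129) and 1.66 ± 0.27 before LH (adjusted p = 0.000467). The call after LH ended without cow A (0.89, adjusted p = 0.140) and without cow B (0.91, adjusted p = 0.139). The other probe set gave 0.12 ± 0.14 after LH and 0.28 ± 0.14 before LH and was not called.

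RGS16 was higher in theca as well, by its brightest probe set. The difference was 1.75 ± 0.43 log2 units after LH (adjusted p = 0.00980), higher in 3 of 3 cows although membrane granulosa of cow C (7.54) exceeded theca of cow B (6.87). It was 1.50 ± 0.43 before LH (adjusted p = 0.0162). Both calls ended without the cow as a block (adjusted p = 0.0849 after LH and 0.114 before LH). The call after LH also ended with only the arrays compared (adjusted p = 0.0524) and without cow A (1.18, adjusted p = 0.0779) or cow B (1.71, adjusted p = 0.0659), and the difference was 2.37 without cow C. The call before LH ended without cow D (adjusted p = 0.0861) or cow G (adjusted p = 0.136). The other RGS16 probe sets were not called in this comparison.

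Of the R7 proteins, which are best known from neurons, RGS7 was measured over the dim limit in theca alone. Theca had 5.58, 5.72 and 5.09 after LH, against 5.93, 6.30 and 5.95 before LH, and the times did not overlap. The 12 granulosa arrays ranged over 3.49 to 4.25. RGS7 was thus at least 1.79-fold higher in theca than in membrane granulosa after LH (adjusted p = 0.000369) and at least 2.70-fold higher before LH (adjusted p = 1.90e-05). Both calls held under every alternative. The LH difference within theca, −0.60 ± 0.20, did not pass the threshold (adjusted p = 0.131). RGS9, which ends the light response in photoreceptors, lay between 3.30 and 4.20 on all arrays.

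Of the R12 proteins, RGS10, a small protein abundant in immune cells and platelets, was over the dim limit on all 18 arrays. Theca had 7.34, 7.79 and 6.82 after LH, against 5.35, 5.57 and 5.95 in membrane granulosa of the same cows. Before LH theca had 7.15, 7.81 and 7.37, against 5.76, 6.42 and 5.19 in membrane granulosa. Neither pair overlapped. Theca was higher by 1.69 ± 0.25 log2 units after LH (adjusted p = 0.000571) and by 1.66 ± 0.25 before LH (adjusted p = 0.000299), calls that held under every alternative. The mean levels of the smooth muscle and pericyte, endothelial, fibroblast and leukocyte lists were also higher in theca than in membrane granulosa. Leukocyte genes averaged 6.36 to 7.20 after LH and 6.41 to 7.47 before LH in theca. The part of any of these cells in the RGS10 differences was not tested.

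In antral granulosa RGS10 had 5.23, 5.42 and 5.55 after LH, against 6.52, 6.37 and 5.73 before LH, without overlap. The difference of −0.81 ± 0.31 did not pass the threshold (adjusted p = 0.0762). It did so with only the arrays compared (adjusted p = 0.0411) and without cow G (−1.05, adjusted p = 0.0286). RGS14, a scaffold that also binds Ras and Rap proteins, was over the dim limit on 12 of 18 arrays, between 4.36 and 5.37, and was called in no comparison.

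The genes whose levels ran most like those of each RGS gene were ranked by Pearson's r over the 18 arrays among 7880 genes. This was done for genes whose group means spanned at least 2 log2 units, and the arrays share the same cows and cell populations, so r is only a description. For LOC513055 (RGS2) they were FOS (0.988), AFAP1 (0.984) and TRIB1 (0.983). RGS5 ran with NID1 (0.987), GNG11 (0.985) and COL15A1 (0.984), of which NID1 and COL15A1 encode basement membrane proteins and GNG11 a G protein gamma subunit. RGS7 ran with NHERF2 (0.986), SH3BGRL2 (0.978) and AFAP1L1 (0.974). RGS10 ran with EXOC3L1 (0.968), ERCC1 (0.962) and RPL8 (0.960). The values were lower for RGS1, at 0.944 for JOSD1, 0.933 for NEDD4L and 0.923 for IFITM1. They were lowest for RGS16, at 0.909 for CISH, 0.893 for BCO2 and 0.879 for FXYD5.

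The partners on which RGS proteins act were read from lists of G protein subunits, receptors, effector enzymes and other brakes on the signal. Of 116 listed genes 82 were measured, by 119 probe sets. After LH, 16 of the 119 were higher and 15 lower in membrane granulosa, 12 higher and 18 lower in antral granulosa, and 1 higher and 5 lower in theca. These shares of 13.4% and 12.6%, 10.1% and 15.1%, and 0.84% and 4.20% stand beside 10.0% and 10.9%, 10.3% and 12.2%, and 1.79% and 2.12% of all probe sets. The median LH difference of the 119 was −0.05, 0.04 and 0.0019 in these populations, against −0.05, −0.01 and −0.0025 over all probe sets. Of the alpha subunits, the direct targets of RGS proteins, 1 of 14 probe sets was higher and 0 lower in membrane granulosa, 1 higher and 2 lower in antral granulosa, and 0 were called in theca.

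LHCGR, the LH receptor, was lower after LH in every population. By its brightest probe set it had 5.42, 5.97 and 5.18 after LH, against 9.57, 9.50 and 9.81 before LH, in membrane granulosa. Its LH difference was −2.88 ± 0.35 log2 units in theca (adjusted p = 0.000185), −2.98 ± 0.35 in antral granulosa (adjusted p = 1.09e-05) and −4.10 ± 0.35 in membrane granulosa (adjusted p = 6.81e-07). Receptors as a list had 0 of 32 probe sets higher and 4 lower in theca, 2 higher and 10 lower in antral granulosa, and 3 higher and 9 lower in membrane granulosa. The lower ones were 12.5%, 31.2% and 28.1% of the list, beside 2.12%, 12.2% and 10.9% of all probe sets. In each population they include a further LHCGR probe set, so they are not all separate genes. AGTR1, an angiotensin II receptor, was higher in granulosa, by 3.14 ± 0.60 in membrane granulosa (adjusted p = 0.00126) and by at least 2.95 log2 units in antral granulosa (adjusted p = 0.000316). NPR3, a natriuretic peptide receptor, was at least 2.75-fold lower in membrane and at least 1.60-fold lower in antral granulosa after LH. In theca AVPR1A, a vasopressin receptor, was at least 2.97-fold lower (adjusted p = 0.0149), and AGTR2 was lower by one probe set (−1.01 ± 0.21, adjusted p = 0.0124). That AGTR2 probe set was also called lower in membrane granulosa (adjusted p = 0.0122). Both means there lay under the dim limit, so no fold is given.

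GNG2, a gamma subunit, shared with LOC513055 (RGS2) a rise in granulosa. Membrane granulosa had 11.05, 10.80 and 10.25 after LH, against 6.10, 6.52 and 5.67 before LH. The LH difference was 5.89 ± 0.34 in antral granulosa (adjusted p = 1.31e-08) and 4.60 ± 0.34 in membrane granulosa (adjusted p = 2.23e-07). In theca it was 0.40 ± 0.34 (adjusted p = 0.678). GNB5, the obligate partner of RGS7 and RGS9, was higher after LH by its brighter probe set, by 1.04 ± 0.25 in theca (adjusted p = 0.0292), 0.75 ± 0.25 in antral granulosa (adjusted p = 0.0426) and 1.03 ± 0.25 in membrane granulosa (adjusted p = 0.00729). Its other probe set was not called.

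Among effectors and other brakes, 1 ITPR1 probe set, for a calcium channel opened by Gq signalling, was higher after LH by 3.02 ± 0.26 in antral and 2.61 ± 0.26 in membrane granulosa, while its other probe sets were not called. GRK5, a kinase that desensitises receptors, was lower after LH, with differences of −3.16 ± 0.35 in antral granulosa (adjusted p = 7.35e-06) and −2.93 ± 0.35 in membrane granulosa (adjusted p = 2.03e-05). In theca GRK5 gave −1.22 ± 0.35 (adjusted p = 0.0713). GPSM2, which holds inhibitory alpha subunits in their GDP form, was lower too, with differences of −2.85 ± 0.32 in antral and −2.18 ± 0.32 in membrane granulosa by the brighter of 2 probe sets.

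**Figure D5:**
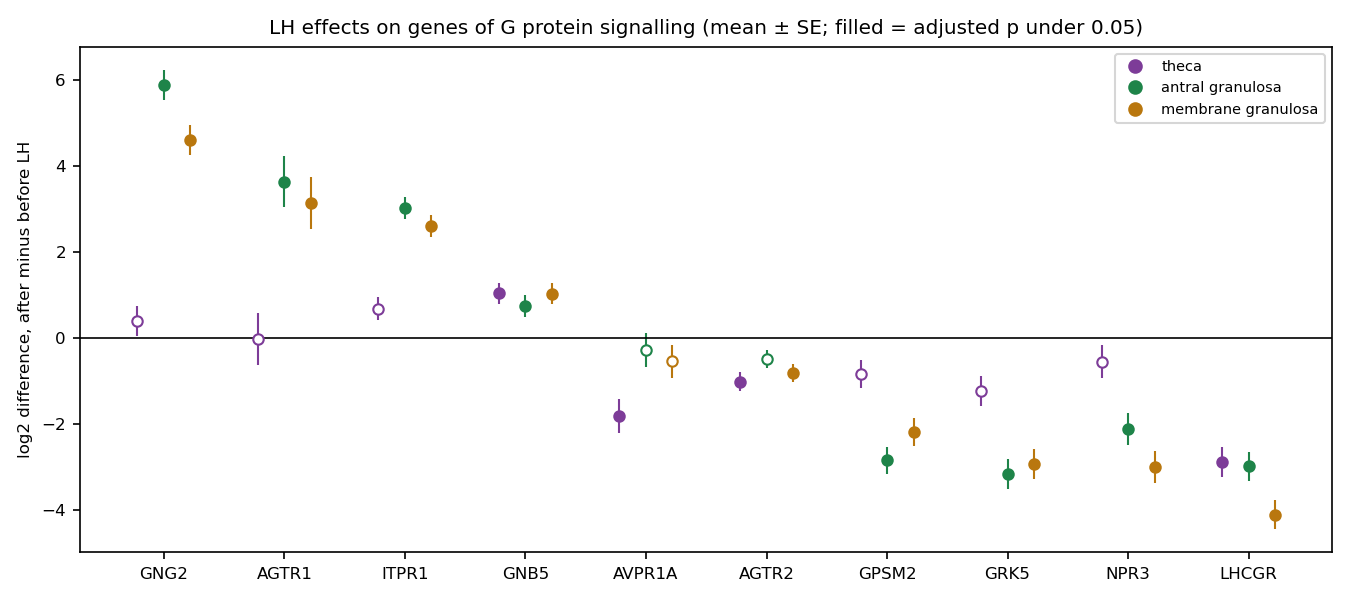
Log2 difference after minus before LH (vertical axis, mean ± SE) of the 10 named genes of G protein signalling, by their brightest probe set, in theca, antral granulosa and membrane granulosa, with 3 cows at each time. Filled points have an adjusted p under 0.05. LHCGR is lower in all 3 populations (−2.88, −2.98 and −4.10), whereas GNG2 is at 5.89 and 4.60 in granulosa and 0.40 in theca.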

How the data were processed

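The labels' protocols name Trizol with phase lock gel for the total RNA and a biotin in vitro transcription kit for the label. The authors summarised the arrays with RMA in Partek 6.5, per the submitters' processing notes, and no settings are given in the sources used here. The deposited table holds log2 signals for 24128 probe sets, from 2.29 to 14.9. RMA as usually run sets the arrays' distributions equal, and then a shift shared by all genes would not be seen. Without the 112 control probe sets of the maker, 24016 were tested with limma 3.58.1 in R 4.3.3 (lmFit, eBayes, Benjamini-Hochberg, threshold 0.05), after a check on simulated data. Of these, 13292 carry 1 symbol in the platform annotation, which can be old, 86 carry several and 10638 none. RefSeq names come from its table for the cattle assembly ARS-UCD2.0, used for names, synonyms and neighbours only.

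LH differences came from 1 model of the 6 group means, unblocked, since separate cows were taken at each time. Differences between populations, and between LH differences, had the cow as a fixed block, because the titles name the cow. As a check, residuals of arrays of 1 cow correlated at −0.02 to 0.69, over 0.1 in 17 of 18 pairs. Cows A, B, C, D, F and G are the biological replicates of the titles.

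The members, the marker lists and the pathway lists were chosen with earlier results of these data known. Every RGS probe set is named, led by the gene's brightest. Of the pathway lists, up to 3 called genes with the largest rise and fall at each LH comparison, and LHCGR, are named. Where a group was dim on all arrays, the bound sets the bright group's mean against 4.62. Alternatives were leaving out each cow or the dimmest 33.3%, 1 probe set per gene, at least 2-fold and only the arrays compared. Further ones were quantile normalization, arrays centred on their medians, a trended and robust prior, and the cow as a block or not.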

Additional observations from a re-analysis of the deposited data

Results flagged for a closer look

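One difference between populations passed its own test. The LH difference of LOC513055 (RGS2) in theca minus that in membrane granulosa was −4.26 on the log2 scale, with rises of 2.81 in theca and 7.07 in membrane granulosa and a limma adjusted p of 0.00611. Single arrays in these groups of 3 cows were not tested as outliers.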

How the results depend on the processing

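Of 22 called differences of LOC513055 (RGS2) and the RGS probe sets, 12 kept their call under every alternative that kept their probe set. None changed sign. Over 305 alternative values, 268 kept the call and 37 lost it. The count of RGS probe sets called with only the arrays compared was 0 in membrane granulosa, 2 in antral granulosa and 0 in theca for the LH differences. In theca it was also 0 with 1 probe set per gene and 0 at 2-fold or more. For antral minus membrane granulosa after LH it was 0 with a trended and robust prior. Leaving out 1 cow at a time gave counts of 0 to 1 for the LH difference in membrane granulosa, 0 to 1 in antral granulosa and 0 to 1 in theca. It gave 2 to 7 for theca minus membrane granulosa after LH, 6 to 7 before LH, and 0 to 1 for antral minus membrane granulosa after LH. Uncalled differences changed sign when 1 cow was left out: RGS5 in theca after minus before LH (−0.18 to 0.39), and the LH difference in theca minus membrane granulosa for RGS1 (−1.64 to 0.30). So did the LH difference in antral minus membrane granulosa for LOC513055 (RGS2) (−0.062 to 1.68) and RGS5 (−1.51 to 0.20). The causes were not tested. Without the cow as a replicate block, the counts were 5 and 6 for theca minus membrane granulosa after and before LH and 0 for antral minus membrane granulosa after LH. With the cow as a random block (correlation 0.195), the LH counts stayed at 1 in each population. All these counts stand without the calls over all probe sets under the same alternatives, so their changes say nothing particular about the family. The 6 cows and dim granulosa signals limit what can be detected.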
